A study of Mus musculus and synthetic construct with 32 samples.

Results

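RNA Bind-N-Seq measures which short sequences a protein takes out of a pool of random RNAs, and here the sequences with a U directly after the adenosine in the middle are described. Each sequence is a 9-mer, a run of 9 bases with A at character 5, and the members are the 9-mers with U at character 6. They were chosen by these letters alone, not by a measured value. They number 16384 of the 65536 9-mers in the authors' deposited table, which holds 16384 each with C, A and G at character 6 as well. The table writes T for U, and so do the sequences below.

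The study asked how the RNA helicase YTHDC2 acts on methylated transcripts of the mouse germline, and this assay is its test tube part, with no cells or animals. The pool was of 21 nt single-stranded RNAs with N6-methyladenosine (m6A) at the centre and random bases around it. In 4 libraries the pool met nickel (Ni-NTA) agarose beads carrying the YTH domain of human YTHDC2, joined to a 6xHis-SUMO tag. In the other 4 libraries, the controls, it met the beads alone. Because the controls carried neither tag nor domain, binding by the tag and binding by the domain cannot be told apart. The labels name no pool without m6A, so the part of the methyl group was not measured. The sources used here do not say whether 9-mers were read only at the centre of the RNAs, so the middle A need not always be the methylated one.

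N6-methyladenosine is the most common internal mark of messenger RNA. Proteins with a YTH domain hold the methylated base in a pocket lined with aromatic residues, while the bases on either side lie along the surface of the domain. The main methyltransferase of messenger RNA marks adenosines that follow A or G and stand before C, so an A followed by U lies outside its usual sequence. In a random pool with m6A placed by synthesis, these U contexts can be read as well as the usual ones.

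The sequences at the ends of the class carry most of what follows, and they are printed 5′ to 3′ with the middle A and the T after it in capitals. The first 5 had the highest folds of the class, the next 3 were the highest with G, T or A before the A, and the last 5 had the lowest folds.
Highest: cgtcATgca
Rank 2: cgtcATgcc
Rank 3: cgtcATgcg
Rank 4: cgtcATgct
Rank 5: gaccATgta
Highest with G before: ttggATgct
Highest with T before: cgttATgca
Highest with A before: ctcaATagc
Lowest: cccgATctt
Rank 2 from below: tccgATcca
Rank 3 from below: agtgATttc
Rank 4 from below: taagATctt
Rank 5 from below: tccgATctc

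A fold is the authors' linear ratio of the YTH domain over the beads for 1 9-mer, and a log2 fold is its logarithm to base 2. The deposited p came in 9 steps, the lowest of which was 0.0286. That is the smallest two-sided p that an exact test of 4 against 4 libraries can give, with 70 arrangements. The name of the authors' test is not given in the sources used here. After Benjamini-Hochberg adjustment over all 65536 9-mers this step became an adjusted p of 0.0443 and the next, 0.0571, became 0.0791. A 9-mer is therefore called higher or lower only where it sat at the lowest step, and every called 9-mer has the same adjusted p. Values of single libraries are not used here, so no spread between libraries stands beside a fold, and medians over 9-mers describe sequences, not replicates.

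The class as a whole lay between the C class and the A and G classes. Its median fold was 0.933 (log2 -0.10), against 1.06 with C (log2 0.08), 0.676 with G (log2 -0.56) and 0.646 with A (log2 -0.63). Over the whole table the median fold was 0.774 (log2 -0.37), and 67.6% of the members stood above it. Of the 16384 members, 4102 (25.0%) were called higher, where 17.3% of all 9-mers were. A further 4795 (29.3%) were called lower, where 47.2% of all 9-mers were, and 7487 were not called. These calls hold at this threshold only: at 0.01, or with Benjamini-Yekutieli adjustment, 0 members were called, and with a fold past 2 as well 1360 were called higher and 309 lower. With C after the A, 33.6% were called higher and 23.2% lower. With A there the shares were 5.04% and 69.9%, and with G 5.38% and 66.6%. Because most folds in the table were below 1, a member at 1 was already above the middle of the table. The mean log2 fold of the class was 0.02, opposite in sign to the median, and the SD over members was 0.69.

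Folds above 2 were found for 1361 members, 8.31% of the class, against 6.06% of all 9-mers. All but 1 of these were called higher. Folds below 0.5 were found for 317 members, where 2.98% of all 9-mers were that low. The lower end was short and the upper end long, from a lowest fold of 0.342 to a highest of 134.6, which was also the highest of the whole table.

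Pairs of 9-mers that differ only at character 6 gave the same order. All 4 classes hold the same contexts, so mean differences between pairs equal those between the classes. The order in the pairs is therefore no separate support. Over the 16384 contexts the member with U lay a median of 0.18 below its C counterpart on the log2 scale (difference -0.18, quartiles -0.48 and 0.12), and it was the higher of these 2 in 5557 contexts (33.9%). Against the A counterpart the median difference was 0.51 (quartiles 0.15 and 0.93), with U higher in 13533 contexts (82.6%). Against the G counterpart it was 0.44 (quartiles 0.10 and 0.84), with U higher in 13217 (80.7%). U gave the highest of the 4 folds in 4524 contexts (27.6%) and C in 9306 (56.8%), while A did so in 1335 and G in 1219. U was the lowest in 1330 contexts (8.12%), A in 8771 and G in 5649. These counts come from the same 8 libraries and carry no test of their own.

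The base that follows the U, at character 7, went with larger differences among members than any of the other 6 variable characters. With A there (the letters ATA from the middle A on) the median log2 fold was 0.37, and 1933 of 4096 members were called higher and 288 lower. With G (ATG, the letters of a start codon) it was 0.06, with a mean of 0.20, and with 1387 higher and 972 lower. With C (ATC) it was -0.22, with 653 higher and 1368 lower. The ATC shares were 15.9% higher and 33.4% lower, against 17.3% and 47.2% over the whole table. Of the ATC members, 60.8% stood above the table median. With a second U (ATT) the median log2 fold was -0.48, with 129 higher and 2167 lower. The 52.9% of lower calls with ATT lay near the 47.2% of the whole table. Its 3.15% of higher calls lay below the 17.3% there. The highest and lowest of these medians lay 0.85 apart, against 0.72 for the same character in the C class, 0.36 in the G class and 0.22 in the A class. Taken alone, character 7 accounted for 22.5% of the variance of log2 folds over the members.

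Whether U or C after the A had the higher fold also went with character 7. Where G stood there, U was the higher of the pair in 2651 of 4096 contexts (64.7%), with a median difference of 0.14 (quartiles -0.12 and 0.52). Where C stood there, U was higher in 685 contexts (16.7%), with a median difference of -0.39. With A or a second U the median differences were -0.19 and -0.25. Before G, then, U was the most frequent top base, highest of the 4 in 2143 contexts (52.3%) against 1265 (30.9%) for C. The libraries could not be used to test the difference between these groups of contexts.

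The base before the A, at character 4, is the place where the usual m6A sequence has A or G. With A there the median log2 fold was 0.07 (1251 called higher and 763 lower of 4096), and with U it was 0.04 (1319 and 936). With C it was -0.14 (985 and 1206), with a mean of 0.04, opposite in sign. The 29.4% of lower calls with C lay below the 47.2% of all 9-mers. With G the median was -0.36 (547 and 1890). Members with G before the A thus lay 0.35 below the rest of the class in the median, which put them near the whole table, with 46.1% called lower against 47.2% of all 9-mers and a median of -0.36 against -0.37. In the C class the same difference was -0.58, and it was near 0 in the A and G classes, at 0.02 and 0.01. After that G, the U and C classes lay close together. They had medians of -0.36 each there, U was the higher in 1976 of 4096 contexts (48.2%), and the median difference was -0.02 (quartiles -0.34 and 0.29).

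At character 3, 2 places before the A, A stood apart from the other bases. Its median log2 fold was 0.14, with 1417 members called higher and 681 lower of 4096. The medians with U, G and C there were -0.15, -0.17 and -0.18, with 952, 830 and 903 called higher and 1305, 1410 and 1399 lower. As means the 3 were nearer to 0, at -0.016, -0.066 and -0.073. These 3 medians lie within 0.04 of each other, and their quartile ranges overlap almost fully, from -0.53 to 0.34 with U, from -0.51 to 0.25 with G and from -0.58 to 0.30 with C.

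Characters 3, 4 and 7 together make 64 classes of 256 members. The highest by median was AT before and A after, read as ATATA over characters 3 to 7, at a log2 of 0.93 with 202 members called higher and 0 lower. Next came AAATA at 0.84 (181 higher and 0 lower), ACATA at 0.83 (169 and 2), TAATA at 0.57 (147 and 4) and CAATA at 0.55 (146 and 7). All 5 hold A at character 7. The lowest was CGATC at -0.83, with 1 member called higher and 217 lower. It was followed by TGATC at -0.72 (1 and 201), CGATT at -0.71 (9 and 181), TGATT at -0.71 (9 and 181) and GCATT at -0.64 (1 and 193). In 4 of these 5, G stood before the A, and in 3 a second U stood after the first.

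The U forms of 4 short sequences were also compared with their C forms. GGATT, the U form of the m6A sequence GGACT, stood at a median log2 fold of -0.62, and 11 of its 256 members were called higher and 187 lower. GGACT itself stood at -0.54 (11 and 194). GAATT stood at -0.46 (1 and 141) and GAACT at -0.38 (24 and 131). AAATT stood at -0.33 (7 and 79), where AAACT stood at 0.20 (99 and 33). TTATT stood at -0.37 (4 and 104), where TTACT stood at 0.21 (96 and 21). The U form minus the C form thus came to -0.09 after GG and -0.08 after GA, but to -0.53 after AA and -0.58 after UU. Lower calls came to 73.0% for GGATT, 55.1% for GAATT, 30.9% for AAATT and 40.6% for TTATT, where 47.2% of all 9-mers were called lower. Higher calls came to 4.30%, 0.391%, 2.73% and 1.56%, against 17.3% of all 9-mers. GGACT and GAACT had 75.8% and 51.2% called lower. The TTATT median lay near the table median of -0.37.

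The whole consensus of the methyltransferase, A, G or U, then A or G, then A, C and A, C or U, had a median log2 fold of 0.08 over 4608 9-mers, with 1560 called higher and 1128 lower. With U in place of its C the 4608 members stood at -0.16, with 1009 called higher and 1480 lower. The lower calls came to 32.1%, below the 47.2% of all 9-mers.

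The outer flanks differed less, except at characters 8 and 9, on the 3′ side. At character 8 the medians were 0.11 with A, 0.00 with C, -0.16 with U and -0.32 with G, where 1830 of 4096 members were called lower and 740 higher. With G these were 44.7% and 18.1%, near the 47.2% and 17.3% of all 9-mers. At character 9 the medians were 0.15 with A (1509 higher and 803 lower), -0.05 with G, -0.20 with U and -0.26 with C (823 higher and 1525 lower). With C there 37.2% were called lower, below the 47.2% of all 9-mers. On the 5′ side, character 2 had medians of 0.05 with A, -0.08 with C, -0.16 with G and -0.20 with U. At character 1 they were 0.01 with C, -0.05 with A, -0.12 with G and -0.25 with U. A thus had the highest median of the 4 bases at every variable character but the first, where C had it.

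Added together, the 7 variable characters accounted for 40.1% of the variance of log2 folds. Beyond character 7, the shares were 5.00% for character 4, 3.46% for character 8, 3.22% for character 3, 2.89% for character 9, 1.59% for character 2 and 1.39% for character 1. Pairs of characters added to this, most of all characters 7 and 8, whose combination held 9.36% beyond both alone. The next pairs were 8 with 9 at 3.10%, 7 with 9 at 2.56% and 3 with 4 at 2.27%.

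The combination of characters 7 and 8 shows what the single characters hide. C at character 8 went with a high median after G (ATGC, 0.54, 648 of 1024 called higher and 28 lower) and a low one after U (ATTC, -0.52, 43 higher and 511 lower). Of the ATTC members 49.9% were called lower, near the 47.2% of all 9-mers, and 4.20% higher, against 17.3% of all 9-mers. G at character 8 was high after A (ATAG, 0.51, 615 higher and 43 lower) and low after U (ATTG, -0.62, 5 higher and 788 lower). After C it was low too (ATCG, -0.46, 17 higher and 572, or 55.9%, lower). After G it stood at -0.25 (103 higher and 427 lower), above the table median, and its 41.7% of lower calls lay below the 47.2% over all 9-mers. ATAA had the highest median, 0.74, with 747 called higher and 14 lower.

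Over the last 3 characters the order was led by AGC, GC followed by A, and runs of A. Members ending in ATAGC stood at a median log2 fold of 1.50, and 241 of 256 were called higher and 1 lower, over folds from 0.738 to 11.6. Those ending in ATAAA stood at 1.08 (228 and 1), and those ending in ATGCA at 0.93 (231 and 1). At the other end, ATTGC stood at -0.74 with 0 called higher and 237 lower, and ATTTC at -0.70 with 0 higher and 189 lower. No fold in the ATTGC group reached 1, and the highest was 0.916.

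The number of A among the 7 variable characters ordered the members in steps. With no A the median log2 fold was -0.52 over 2187 members, of which 233 were called higher and 1227 lower. These were 10.7% and 56.1%, against 17.3% and 47.2% of all 9-mers. With 1 A the median was -0.31, with 2 it was -0.05, and with 3 it was 0.29 (1117 higher and 216 lower of 2835). With 4 A it was 0.67 over 945 members (550 and 16), with 5 it was 1.07 over 189 (147 and 0), and with 6 it was 1.48 over 21 (18 and 0). The 9-mer of A alone around the U, aaaaATaaa, had a fold of 2.89 in the authors' deposited table (adjusted p = 0.0443 by Benjamini-Hochberg). The C class covered a wider range over the same steps, from -0.35 with no A to 1.41 with 5, while the A class went from -0.76 to -0.31 and the G class from -0.68 to -0.30.

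U ran the other way. Members with no further U had a median log2 fold of 0.24 (833 of 2187 called higher and 292 lower), and the medians went down through 0.01, -0.16, -0.30 and -0.41 to -0.44 with 5 further U. With 6 the median was -0.39, over 21 members. The 9-mer of U alone around the A, ttttATttt, had a fold of 0.726 in the authors' deposited table and was not called (adjusted p = 0.0791, Benjamini-Hochberg). The forms flanked by C alone, ccccATccc, and by G alone, ggggATggg, stood at 0.857 and 1.01 in the authors' deposited table, and neither was called (adjusted p = 0.389 and 0.901, Benjamini-Hochberg). By the number of G or C together, the medians went from 0.42 with none, over 128 members, to -0.28 with 6. With 7 the median was -0.24, over 128 members.

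The upper end of the class was made of a few families of near-identical sequences. Folds above 8 were found for 55 members, 0.336% of the class, where 0.392% of all 9-mers were that high, and all 55 were called. They made up 21.4% of the 257 such 9-mers of the table. Of these, 48 read ATG from the middle A on, and 29 read CATG from character 4. At folds above 16 there were 20 members, 25.6% of the 78 such 9-mers of the table, close to the share of the class in the table. Of the 55, 46 had no counterpart above 2 when the U was replaced by C, A or G, and 3 had a counterpart above 8. The 55 were picked by their own high folds and the counterparts were not, so this count is no test of the U.

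The first family has CGTCATG at characters 1 to 7, and all 16 of its members were called higher, with folds from 1.93 to 134.6. It was picked by its folds above 8, which 10 of the 16 had. The calls, where 17.3% of all 9-mers were called higher, come from the same folds and are no separate support. With C at character 8 the family's 4 members, printed above as the 4 highest, had folds of 134.6, 76.3, 73.4 and 70.2 for A, C, G and T at character 9 in the authors' deposited table (each at an adjusted p of 0.0443 by Benjamini-Hochberg). The same 9-mers with C, A or G after the middle A had folds between 0.577 and 1.80 in the authors' deposited table. For the highest member these were 1.80 for cgtcAcgca, 0.814 for cgtcAggca and 0.707 for cgtcAagca in the authors' deposited table. The 4 members were picked by their high folds and the counterparts were not.

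Each of the 24 single-base changes of cgtcATgca that keep the middle A can be read from the table, with positions counted from 1 at the 5′ end. Since cgtcATgca was picked as the highest member, lower folds in its neighbours are no test of a single base. A change at either end kept high folds. The 3 changes at character 9 left at least 70.2, and at character 8 the folds were 25.3 for C8A, 26.9 for C8T and 13.6 for C8G in the authors' deposited table. At character 1, C1A stood at 26.8 and C1T at 17.6, but C1G at 5.99, in the authors' deposited table. Changes near the middle A took the fold down further. In the authors' deposited table C4T stood at 15.1, while C4A stood at 1.35 and C4G at 1.03. G7T, G7A and G7C stood at 3.23, 2.54 and 1.10 in the authors' deposited table. At character 6 the folds were 1.80 for T6C, 0.814 for T6G and 0.707 for T6A in the authors' deposited table. At characters 2 and 3 all 6 changes stood between 1.50 and 5.28. Of the 24 neighbours 9 stayed above 8, and 2, T6A and T6G, were below 1.

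The second family has GACCATG at characters 1 to 7. All 16 members were called higher, with folds from 1.78 to 48.4. This family too was picked by its folds above 8, which 9 of the 16 had. Not every group with such folds was called throughout. The group with AGTCATG at characters 1 to 7 had 6 of 16 members called higher and 2 lower, at a median fold of 1.10. The group with TGTCATG there had 9 of 16 called higher and 2 lower. The group with CGTTATG there had 15 of 16 called higher and 0 lower. In the authors' deposited table gaccATgta stood at 48.4, gaccATgtg at 45.5 and gaccATgag at 31.1 (each at an adjusted p of 0.0443 by Benjamini-Hochberg). From gaccATgta, C4T left 8.96 while C4A left 1.43 and C4G 1.40 in the authors' deposited table. T6C, T6G and T6A left 1.40, 0.719 and 0.666 in the authors' deposited table. At character 1 it differed, since its G was followed by folds of 7.54, 4.06 and 3.86 for G1T, G1C and G1A in the authors' deposited table. At character 2, A2G left 12.9 and A2C 1.57 in the authors' deposited table.

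The third family kept GGATGC at characters 3 to 8 with free ends, with G before the A. Its 64 members had a median log2 fold of 1.60, with 62 called higher and 0 lower, and folds from 1.07 to 21.6. This family was also picked by its folds above 8, so its calls are no separate support. All other members with G before the A had folds of at most 8, since each of the 11 above 8 with G there read GGATGC. From ttggATgct, at 21.6, the changes at character 4 left 1.06 for G4C, 1.02 for G4A and 0.903 for G4T in the authors' deposited table. At character 8, C8T left 2.28, and C8G and C8A left 0.590 and 0.569, in the authors' deposited table. At character 2 the changes left 17.7, 9.57 and 6.74 for T2A, T2C and T2G in the authors' deposited table. From cgtcATgca of the first family C8A and C8G had left 25.3 and 13.6. The third family was defined with C at character 8 and the first was not, and both parents were picked by their folds. This difference is therefore no test of that character.

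The lower end reached less far from 1 than the upper. The lowest 9-mer, cccgATctt, had a fold of 0.342 in the authors' deposited table, and tccgATcca had 0.348 (both at an adjusted p of 0.0443 by Benjamini-Hochberg). Then came agtgATttc at 0.374, taagATctt at 0.382, tccgATctc at 0.390, tgcaATtcc at 0.391 and tctgATtta at 0.398 in the authors' deposited table. The next, tgtgATctt, gccgATccc and tctgATctc, stood at 0.401, 0.401 and 0.406 in the authors' deposited table. Of these 10, 9 had G before the A, and the exception was tgcaATtcc. In all 10, C or U came right after the AT. The 24 single changes of cccgATctt stood between 0.427 and 0.871, and none was above 1. Members with GATC at characters 4 to 7 stood at a median log2 fold of -0.61, and 48 of 1024 were called higher and 695 (67.9%) lower. They held 121 of the 317 members below 0.5, and those with CGATC at characters 3 to 7 held 64.

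By the base before the A, the highest members had folds of 134.6 with C (cgtcATgca), 21.6 with G (ttggATgct), 15.1 with U (cgttATgca) and 9.34 with A (ctcaATagc) in the authors' deposited table. The lowest were 0.342 with G (cccgATctt), 0.391 with A (tgcaATtcc), 0.415 with C (gtgcATttc) and 0.437 with U (gtgtATtct) in the authors' deposited table. The base with the highest median, A, thus had the lowest top fold of the 4, and C, with the highest top fold, had a median below 0.

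Over the matched contexts the log2 folds of the U class ran with those of the C class more than with the other 2 classes. Over these 16384 contexts Pearson's r was 0.51 and Spearman's rho 0.59 with C, 0.27 and 0.43 with G, and 0.22 and 0.37 with A. The points share their 8 libraries and 8 of 9 letters, and these values are descriptions across 9-mers without a test.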

How the data were processed

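The assay compared 4 YTH domain libraries with 4 bead libraries. The other 24 of the 32 libraries of the series hold mouse RNA and were not used here. Per the labels' protocols, bound RNA was made into libraries with a small RNA kit, and the submitters' processing notes name cutadapt for them. How 9-mers were counted and how folds and p were computed is not given in the sources used here.

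The table holds, per the file headers, the authors' fold, a linear ratio of YTH domain over control, and the authors' unadjusted p-value for each 9-mer. Another 8 columns hold per-library values under names found in no label, and were left out, so depth is unknown and the planned tests over libraries could not be run. In their place the authors' p-values were adjusted over all 65536 9-mers by Benjamini-Hochberg and called below 0.05. Log2 folds, medians, counts and shares of variance were computed with Python 3.11.15, pandas 2.3.3 and numpy 2.4.6, with no pseudocount or filter. Group means, the adjustments of p and the shares of variance were tested on simulated data, and medians and counts were not.

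Named 9-mers were the 10 highest and 10 lowest called, the C, A and G counterparts of the 5 highest, the extremes for each base at character 4, the 5 highest and 5 lowest classes by characters 3, 4 and 7, and 4 set sequences. Single-base changes, families above 8-fold, counts of each base and other letter groups were chosen after their values were seen. The members and lists were chosen with earlier results of these data known.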

Additional observations from a re-analysis of the deposited data

How the results depend on the processing

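Calls rest on the lowest step of p. At a threshold of 0.01, and with Benjamini-Yekutieli adjustment, 0 members were called higher and 0 lower, where Benjamini-Hochberg at 0.05 called 4102 and 4795, which are also the counts below an unadjusted 0.05. The lowest Benjamini-Yekutieli value was 0.517. All 25 named members with U lost their call under both settings. With a fold past 2 as well, 1360 stayed higher and 309 lower. Counted against the table median, 4616 called members lay above and 4281 below. The class median log2 fold of -0.10 became a mean of 0.0191, a mean of 0.0057 without members above 8-fold and 0.27 against the table median. With C at character 4 the median of -0.14 became a mean of 0.038. The other base medians at characters 3, 4 and 7 kept their sign as means, without A at character 4 and without runs of 4 or more equal bases, but 6 moved by over 0.1. As means, U, G and C at character 3 went from -0.15, -0.17 and -0.18 to -0.016, -0.066 and -0.073, G at character 4 from -0.36 to -0.24 and G at character 7 from 0.06 to 0.20. Without A at character 4, C at character 7 went from -0.22 to -0.32. Differences from C, A and G counterparts, and the difference with G at character 4, moved by less than 0.1 as means. The fold limit, the centring, the limit of 8-fold and the mean for G at character 4 were added after seeing the data. No paired analysis was possible because the columns used carry no replicate numbers. Leaving out libraries, other count tests, count weights and filters on low values were not run, since they need values per library. The depth is unknown, so what counting error adds to each fold was not measured.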

Other observations

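A few letter groups of known use in messenger RNA can be read in the class, chosen after the data were seen. Members with AATAAA at characters 4 to 9, the letters of the main polyadenylation signal, had a median log2 fold of 1.36. All 64 were called higher, with folds from 1.68 to 4.38, where 17.3% of all 9-mers were called higher. Members with ATTTA at characters 5 to 9, the core letters of AU-rich elements, had a median of -0.39, near the table median of -0.37, with 5 of 256 called higher and 99 lower. That is 38.7% called lower, below the 47.2% of all 9-mers. TATAA at characters 4 to 8 stood at 0.82, with 223 of 256 called higher and 1 lower. These groups differ in their number of A and U, and the part of base content in their folds was not tested.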
